A study of Mus musculus with 9 samples.

Results

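The 4 maternally methylated imprint regions measured on mouse chromosome 7, named after Peg3, Snrpn, Inpp5f and Kcnq1ot1, were followed from cultured donor fibroblasts into nuclear-transfer embryos. They were taken as fixed windows of build mm9, chr7:6679000-6685000 for Peg3, chr7:67146000-67152000 for Snrpn, chr7:135830500-135833500 for Inpp5f and chr7:150480000-150484000 for Kcnq1ot1. The windows held 63 CpGs with any call. A CpG was kept when it had at least 5 calls in 6 or more of the 8 samples, which left 35 CpGs in the windows out of 1151670 kept in all. Peg3 kept 5 CpGs, Snrpn 9, Inpp5f 10 and Kcnq1ot1 11. A call is one read of a CpG scored as methylated or not, and a methylation level is the share of methylated calls in percent.

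The assay was reduced representation bisulfite sequencing: DNA is cut by MspI at CCGG, fragments of selected size are converted, and unmethylated cytosines are then read as thymines. Tail-tip fibroblasts of adult male mice, cultured to confluence (label TT), were the nuclear donors. The embryos (label NTZy14, here NT embryos) were made by moving such a nucleus into an enucleated C57/B6 oocyte, activating it with strontium chloride in the presence of cytochalasin B, and culturing it before the zona was removed. Each stage held samples 1 and 2, labelled BDF1-CAST, and samples 3 and 4, labelled X1. What cross or line X1 is, what the digits of NTZy14 stand for, how many embryos were pooled and whether samples came from separate animals is not stated in the labels. The p-values therefore rest only on how these samples scatter, and part of that scatter may be technical. Fibroblast samples held 35442175 to 80142240 calls and NT embryo samples 25239364 to 30396273.

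At an imprinted gene, one parental copy is methylated at a control region and the other is not, and the mark set in the egg or sperm persists in the body. All 4 regions are known for methylation that is set in the oocyte, with expression from the unmethylated paternal copy. A tissue that keeps the mark on the maternal copy reads as partly methylated, midway between none and all, since bisulfite reads pool both copies. Peg3 encodes a large zinc finger protein, and Snrpn encodes a protein of the spliceosome and lies in the domain whose human counterpart is affected in Prader-Willi syndrome. Inpp5f encodes a phosphoinositide phosphatase, with an imprinted isoform that starts inside the gene. Kcnq1ot1 is a long noncoding RNA that runs antisense to Kcnq1 and silences neighbouring genes on the paternal chromosome.

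One measured stretch could be shown at the level of its sequence, because the spacing of its CpGs matched a RefSeq promoter of Snrpn and the methylation values below include its CpGs. The RefSeq table is on build GRCm38.p6, and no coordinates were converted between builds. For the Snrpn promoter at chr7:60005150-60005449 on the minus strand, 4 of 4 measured CpGs fell on a CG of the sequence when 1 of them was aligned. Such a full match occurred at 2 of 872784 placements tried along chromosome 7, and the other one lay outside the window. Placements with fewer than 4 measured CpGs could not match, so these counts do not measure how specific the match is. The stretch from 120 bases before the start site to 20 bases after it is printed 5′ to 3′, and capitals mark the 2 CpGs that were kept, at positions 67150113 and 67150084 of the mm9 files in that order.

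Snrpn: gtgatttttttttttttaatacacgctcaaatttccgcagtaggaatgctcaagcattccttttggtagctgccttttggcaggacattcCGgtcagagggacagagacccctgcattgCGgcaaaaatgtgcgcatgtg

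The stretch holds 5 CpGs and 1 CCGG site, and the first capital pair lies in that site. The second lies 1 base before the start site, inside TGCCGC on the opposite strand, the hexamer bound when methylated by ZFP57, a zinc finger protein known to maintain imprints. Both strands were searched. The hexamer is in 11.6% of the 32851 RefSeq promoters of 300 bases in the table, so the match is a description. RefSeq promoters of Peg3, Inpp5f and Kcnq1ot1 were present too, but none gave a full match by the same rule. Placements with too few measured CpGs could not match, so whether any measured CpG of those windows lies in them is unknown.

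In fibroblasts each window was partly methylated in every sample, with all sample levels between 29.8% and 51.3%. Parent of origin was not measured, so which copy carried the methylation is unknown. The Peg3 window, read through 5 CpGs within 65 bp, was at 44.2%, 31.0%, 31.9% and 51.3% in fibroblast samples 1 to 4, and at 52.5%, 13.6%, 37.6% and 57.4% in NT embryo samples 1 to 4. NT embryo 2 had the lowest level and NT embryo 4 the highest, and the stages overlapped. Snrpn, read through 9 CpGs over 626 bp, was at 34.2%, 29.8%, 39.9% and 35.7% in fibroblasts and at 26.4%, 33.3%, 21.3% and 13.4% in NT embryos. Embryo samples 1, 3 and 4 lay below every fibroblast sample, and NT embryo 2 lay within their range.

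Inpp5f, with 10 CpGs over 298 bp, was at 38.6%, 38.9%, 50.3% and 34.7% in fibroblasts. In NT embryos it was at 75.1% and 57.1% in the BDF1-CAST samples and at 35.9% and 23.8% in the X1 samples. By calls summed over the window, the embryo levels thus lay above all fibroblast levels in BDF1-CAST and within or below them in X1. Such levels depend on which CpGs hold the calls. The 5 CpGs from 135831700 to 135831799 gave 335 of the 398 calls of NT embryo 1, at 84.8%. In fibroblast 1 they gave 348 of 599, at 49.7%. Kcnq1ot1, with 11 CpGs over 242 bp, was at 32.1%, 39.3%, 36.1% and 40.4% in fibroblasts and at 27.3%, 68.1%, 31.7% and 35.2% in NT embryos. Only NT embryo 2 stood far from the fibroblast range, at 68.1% with a 95% Wilson interval of 60.6% to 74.8%. Intervals of this kind treat each call as independent, although CpGs on the same reads repeat each other. They are thus too narrow even for counting error, and calls of amplified reads are not counts of molecules.

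**Figure D1:**
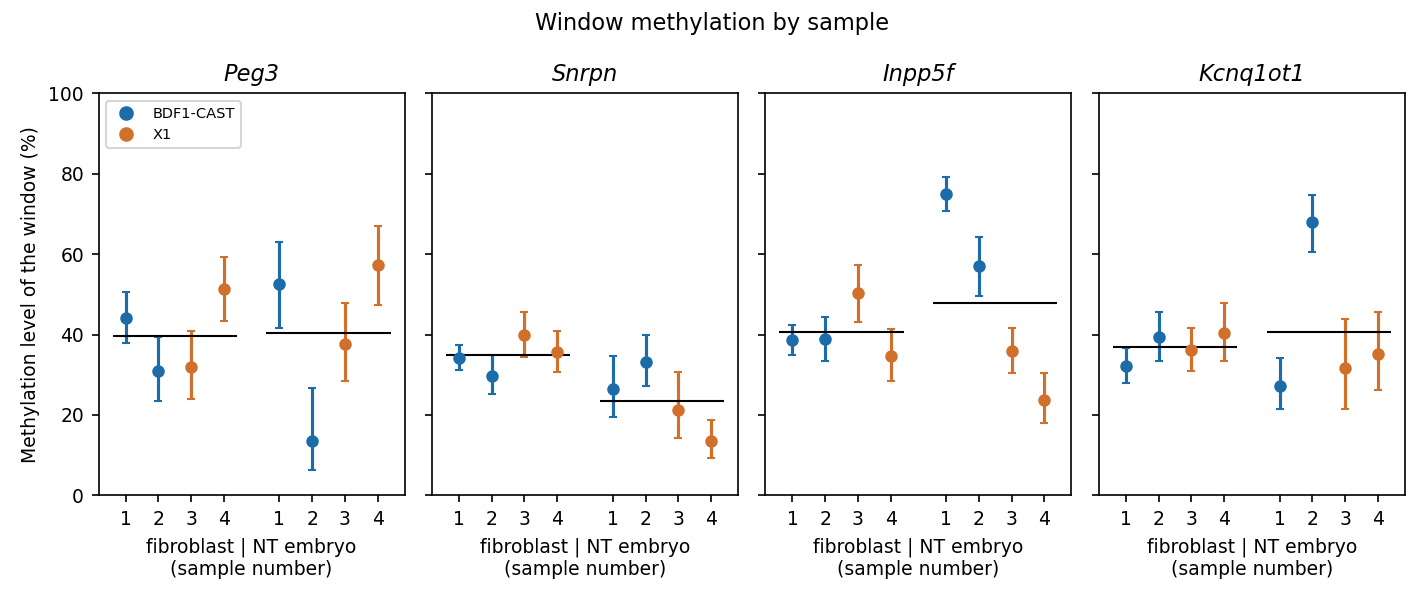
Methylation level of each window (y axis, percent) in fibroblast samples 1 to 4 and NT embryo samples 1 to 4 (x axis), with blue for BDF1-CAST and orange for X1. Bars are 95% Wilson intervals of the calls and horizontal lines are stage means; NT embryo levels span 13.4% to 75.1%, fibroblast levels 29.8% to 51.3%.

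No window differed between stages at p under 0.05 when stages were compared by exact permutation of the samples (two-sided, 70 assignments, lowest attainable p 0.0286). Mean levels of the Snrpn window were 34.9% ± 4.20 (SD, n = 4) in fibroblasts and 23.6% ± 8.42 in NT embryos, a difference of -11.3 points (NT embryos minus fibroblasts, exact permutation p = 0.0571). Without NT embryo 2 the Snrpn difference was -14.6 points, with an exact permutation p of 0.0286, again the smallest that 3 samples against 4 allow. Peg3 was at 39.6% ± 9.89 and 40.3% ± 19.7 (n = 4 each, difference 0.717, exact p = 0.971). Inpp5f was at 40.6% ± 6.73 and 48.0% ± 22.8 (n = 4 each, difference 7.36, exact p = 0.571). Kcnq1ot1 was at 37.0% ± 3.73 and 40.6% ± 18.6 (n = 4 each, difference 3.59, exact p = 0.971). A p that misses the threshold does not show that these levels were alike, given embryo ranges of 20 points for Snrpn, 40.8 for Kcnq1ot1, 43.8 for Peg3 and 51.4 for Inpp5f.

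The sign of 3 of these differences rested on single samples. The Kcnq1ot1 difference was -5.58 points without NT embryo 2 (exact permutation p = 0.114), and the Inpp5f difference was -1.69 points without NT embryo 1. For Peg3 it was -2.16 without fibroblast 2, -1.86 without fibroblast 3, -3.35 without NT embryo 1 and -5.00 without NT embryo 4. Snrpn kept a negative difference whichever sample was left out, from -14.6 to -7.90 points. With each CpG weighted equally it was -13.0 points (exact permutation p = 0.171). The summed Snrpn level also depends on which CpGs hold the calls. Of the 202 calls of NT embryo 4, CpGs 67150084 and 67150113 gave 65 each, and 67149755 and 67149778 gave 0. In fibroblast 1, with 821 calls, the same CpGs gave 43, 42, 61 and 61. Depth differed between stages, with 298 to 821 calls per fibroblast sample and 94 to 207 per NT embryo sample over the Snrpn window, and its part in the difference was not tested.

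Whether any 2 windows changed by different amounts was asked of the difference between their levels in each sample, for all 6 pairs. The Snrpn level minus the Inpp5f level was -5.70 ± 5.16 points (SD, n = 4) in fibroblasts and -24.4 ± 17.2 points in NT embryos. That shift of -18.7 points had an exact permutation p of 0.0286, not adjusted for the 6 pairs, and the stages did not overlap. The call did not hold when fibroblast 1, 2, 3 or 4 or NT embryo 1 was left out (differences of -18.2, -19.8, -20.2, -16.4 and -10.5, exact permutation p of 0.143, 0.114, 0.0857, 0.143 and 0.0571). It was also lost with each CpG weighted equally (-10.2 points, exact permutation p = 0.171), with 10 calls required in every sample (-28.2 points, exact permutation p = 0.114) and with no coverage filter (-17.5 points, exact permutation p = 0.0571). The other 5 pairs did not pass. The nearest was Snrpn minus Kcnq1ot1 at -14.9 points (exact permutation p = 0.114), and the smallest shift was Peg3 minus Kcnq1ot1 at -2.88 points (exact permutation p = 0.943). Without NT embryo 1 the Snrpn minus Kcnq1ot1 shift was -20.3 points (exact permutation p = 0.0286).

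To set the windows beside other sequence of intermediate methylation, tiles of 100 bp outside the windows were taken when the fibroblasts of the other strain put them at 30 to 70%. That class had 29659 tiles for BDF1-CAST samples and 32582 for X1 samples. In fibroblasts the class averaged 55.2% ± 6.55 (SD, n = 4), and in NT embryos 46.0% ± 8.43 (difference -9.14, exact permutation p = 0.143). Each of the 4 windows lay below this class in each fibroblast sample, by differences of -6.97 to -30.0 points. In NT embryos Inpp5f lay 36.9 and 17.5 points above it in samples 1 and 2, while Snrpn lay below it in all 4 samples, at -6.20 to -37.8 points. Taken relative to the class, the stage difference was 9.85 points for Peg3 (exact permutation p = 0.400), -2.17 for Snrpn (p = 0.800), 16.5 for Inpp5f (p = 0.400) and 12.7 for Kcnq1ot1 (p = 0.371). Each rested on single samples: Peg3 was at 3.20 without NT embryo 1 and 16.6 without NT embryo 2, Inpp5f at 4.85 without NT embryo 1 and 26.3 without NT embryo 4, and Kcnq1ot1 at 1.39 without NT embryo 2. The Snrpn value changed sign to 1.65 without NT embryo 3 and to 2.94 without NT embryo 4. None of these tests set a window apart from other sequence of intermediate level.

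Window levels scattered more widely among NT embryo samples than among fibroblast samples, as measured by their SD. The SD between samples was 19.7 points in NT embryos against 9.89 in fibroblasts for Peg3, 8.42 against 4.20 for Snrpn, 22.8 against 6.73 for Inpp5f and 18.6 against 3.73 for Kcnq1ot1. The order held in 8 of 8 settings with 1 sample left out in each window, although the Kcnq1ot1 embryo SD was 3.96 points without NT embryo 2. Peg3 likewise had an embryo SD of 10.3 points without NT embryo 2, against 16.9 for Inpp5f without NT embryo 1. Counting error alone gave SDs of 5.22, 3.51, 3.06 and 4.60 points in NT embryos for Peg3, Snrpn, Inpp5f and Kcnq1ot1. Each embryo SD over 4 samples was larger than that, but the Kcnq1ot1 SD of 3.96 without NT embryo 2 was not. These values treat calls as independent and hold no other technical error. The 2 sequencing runs of fibroblast 1, libraries 1 and 1a, differ by counting error and other error of sequencing together, which they do not separate. They were at 53.2% and 33.9% for Peg3, 35.1% and 33.5% for Snrpn, 41.4% and 35.7% for Inpp5f and 27.0% and 36.3% for Kcnq1ot1. For Peg3 and Kcnq1ot1 that gap was about as wide as the whole range of the 4 fibroblast samples, 20.4 and 8.31 points.

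**Figure D2:**
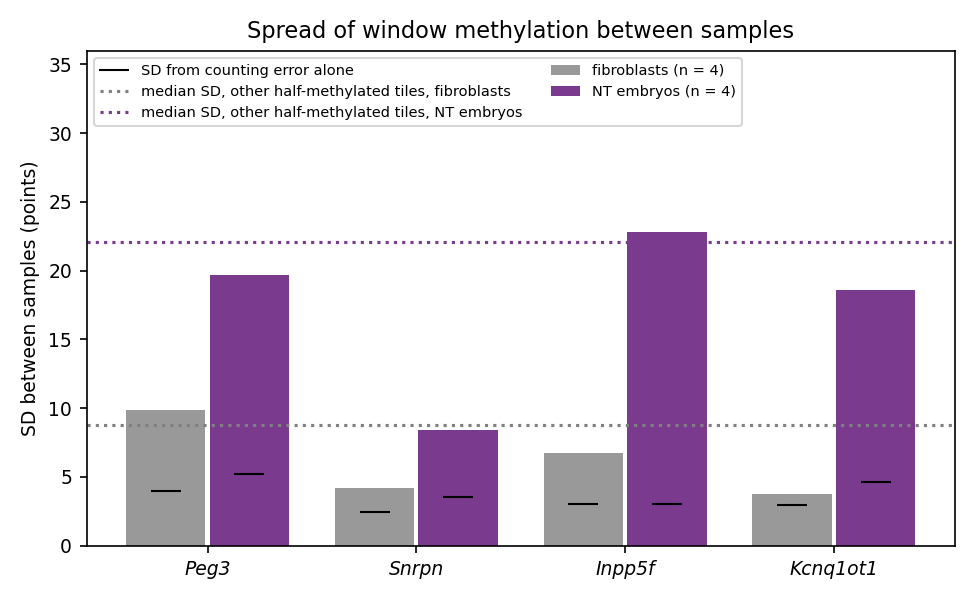
SD of the window level between the 4 samples of each stage (y axis, percentage points), grey for fibroblasts and purple for NT embryos. A black mark is the SD that counting error alone gives when calls are treated as independent. Dotted lines are the median SD of other tiles at 30 to 70% (8.81 points in fibroblasts, 22.1 in NT embryos); the embryo bar is the higher one in all 4 windows.

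A larger spread in NT embryos was common to sequence of this level. Over 44778 tested tiles at 30 to 70% across the 8 samples, fibroblasts had a median SD of 8.81 points and NT embryos of 22.1, and 88.5% of these tiles had the higher SD in NT embryos. With at least 40 calls in every sample, 5728 tiles remained, with medians of 7.37 and 17.0 points, and 86.1% had the higher SD in NT embryos. The Inpp5f window was near the middle of the embryo distribution, with 48.2% of the 44778 tiles at or above its SD. Snrpn was near its lower end, with 90.9% at or above it. Tiles and windows differ in the number of calls they pool, so these shares compare unlike depths.

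Methylation of single CpGs in the windows was often at 0% in NT embryos. Among CpG values with at least 5 calls, 38 of 122 in the windows (31.1%) were at 0% or 100% in NT embryos, against 5 of 139 (3.60%) in fibroblasts. In both stages all of these window values were at 0%, and none was at 100%. The share was 40.6% in NT embryo 1, 15.6% in NT embryo 2, 33.3% in NT embryo 3 and 35.5% in NT embryo 4, and it was at most 8.57% in a fibroblast sample. Snrpn had 12 of 31 such embryo values, Inpp5f 11 of 32, Kcnq1ot1 10 of 39 and Peg3 5 of 20. Among values with 10 to 40 calls, the shares in the windows were 28.2% in NT embryos (22 of 78) and 3.19% in fibroblasts (3 of 94). CpGs of intermediate level outside the windows, within the same range of 10 to 40 calls, were at 0% or 100% in 22.9% and 2.32% of values. Those values were not divided into 0% and 100%. CpGs on the same reads repeat each other, so these counts are not of independent values, and the windows were not tested against the other CpGs.

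**Figure D3:**
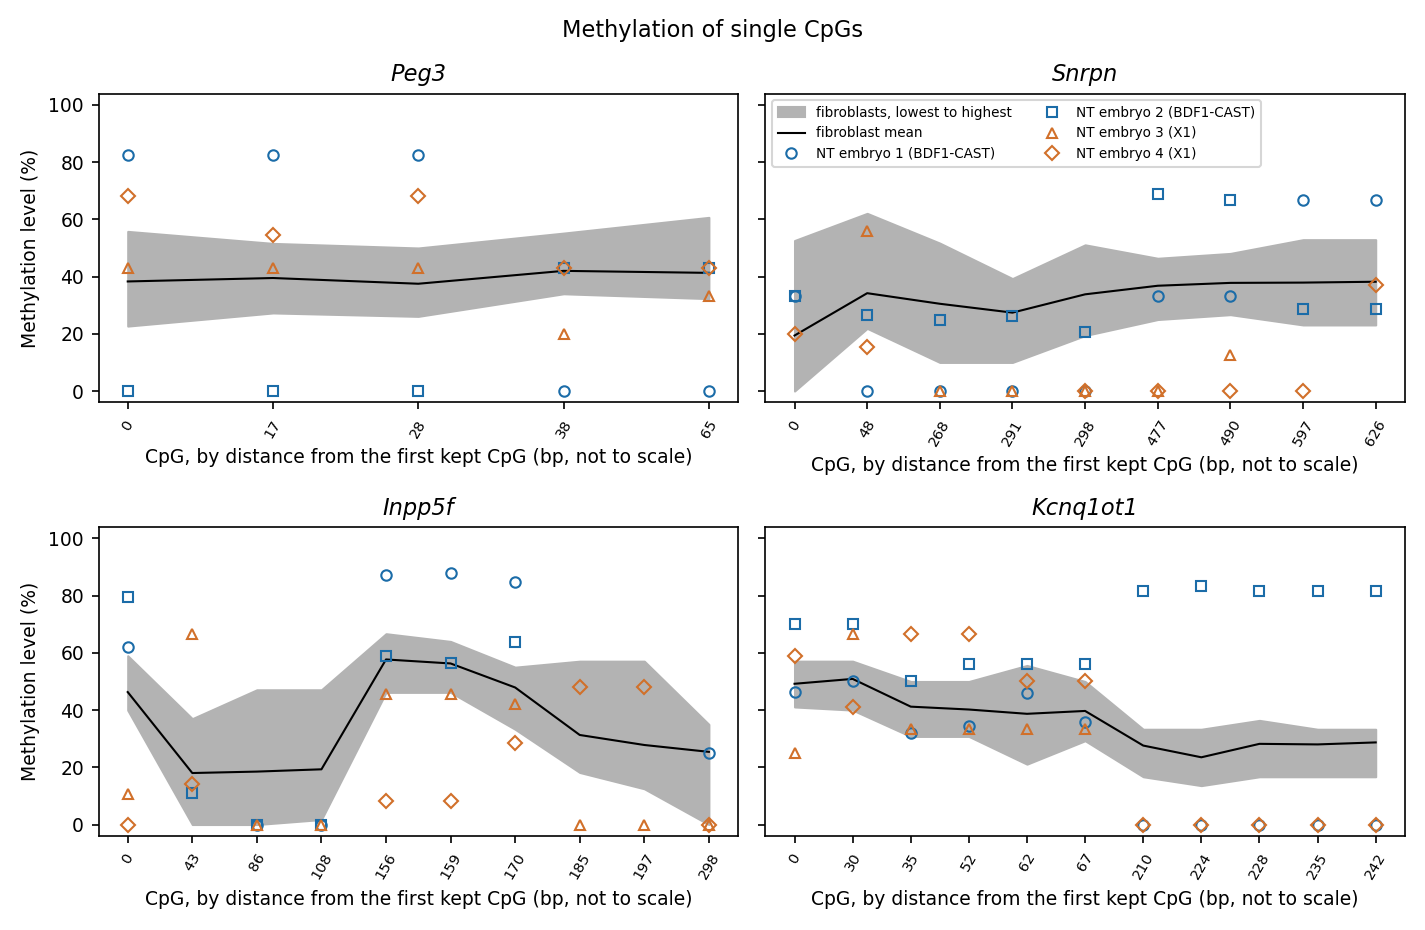
Methylation level (y axis, percent) of each kept CpG, ordered along its window by distance from the first one (x axis, bp, not to scale), for values with at least 5 calls. Grey shading spans the fibroblast samples, the line is their mean and open symbols are NT embryo samples; in Kcnq1ot1 the last 5 CpGs are at 81.8% to 83.3% in NT embryo 2 and at 0% in NT embryos 1 and 4.

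The CpG with the most calls in each window is given next as the most precise single site. For Peg3 it was 6683000, at 50%, 31.8%, 26.1% and 41.9% in fibroblasts and at 82.4%, 0%, 42.9% and 68.2% in NT embryos. For Snrpn it was 67149977, at 35.1%, 41.2%, 26.7% and 48.1%, and at 33.3%, 66.7%, 12.5% and 0%. In both, embryo samples lay above and below the whole fibroblast range. For Inpp5f it was 135831731, at 51.7%, 55.0%, 51.6% and 33.3%, and at 84.7%, 63.9%, 42.3% and 28.6%. The Kcnq1ot1 CpG, 150481309, was at 40%, 50%, 57.1% and 56.5%, and at 50%, 70%, 66.7% and 41.2%, and so reached neither extreme. Among CpGs with at least 10 calls in all samples, mean fibroblast levels ran from 37.5% (6683000) to 39.5% (6682989) in Peg3 and from 46.3% (135831561) to 57.7% (135831717) in Inpp5f, and the single such CpG of Snrpn, 67149785, was at 33.8%.

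The CpGs fell into 19 runs, where neighbours whose call counts agreed within 10% in the samples were taken as read together. Of these, 10 runs held 2 or more CpGs. The SD was higher in NT embryos in 10 of the 11 runs with at least 5 calls per CpG in every sample, and in 15 of 19 when values with fewer calls were included. Over values with at least 5 calls per CpG, in 3 or more samples per stage, it was higher in 13 of 18 runs. Of the other tested tiles at 30 to 70%, 88.5% had the higher SD in NT embryos. The Peg3 run at 6682972 to 6683000 (3 CpGs) was at 51.5%, 27.3%, 27.5% and 47.3% in fibroblasts and at 82.4%, 0%, 42.9% and 63.6% in NT embryos. The next run, starting 10 bp further on, was at 35%, 35%, 38.6% and 57.9% in fibroblasts and at 0%, 42.9%, 26.7% and 42.9% in NT embryos. NT embryo 1 thus went from 82.4% to 0% between neighbouring runs, where its reads gave 17 calls per CpG in the first and 14.5 in the second. NT embryo 2 went the opposite way, from 0% to 42.9%.

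In Kcnq1ot1 the 5 CpGs from 150481489 to 150481521 formed a run at 29.4%, 28.7%, 33.9% and 16.7% in fibroblasts. That run was at 82.1% in NT embryo 2 and at 0% in NT embryos 1, 3 and 4, with 11.2, 11.2, 2 and 6 calls per CpG in samples 1 to 4. The first 2 runs of Kcnq1ot1, from 150481279 to 150481346, lay between 29.4% and 57.1% in fibroblasts and between 33.3% and 70% in NT embryos, with no sample at 0%. Over all windows the median step between neighbouring runs of a sample was 12.3 points in fibroblasts (59 steps) and 16.2 points in NT embryos (47 steps), although in Snrpn the medians were 5.50 and 4.70 points. The largest embryo steps were 82.4 points in Peg3 and 87.6 points in Inpp5f, both in NT embryo 1.

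Tiles gave the test across the genome. Kept CpGs lay in 16 tiles of the windows, out of 468467 in all, and 7 of the 16 had at least 10 calls in every sample and were tested among 271481 tiles. A quasi-binomial model with stage and strain was fitted to each, with the spread moderated by limma and p-values adjusted by Benjamini-Hochberg over all tested tiles. The model called 0 of the 7 tiles between stages at an adjusted p under 0.05 and 20 points, where 3.56% of all tested tiles were called (3.43% lower and 0.134% higher in NT embryos). At an unadjusted p under 0.05 it also passed 0 of the 7, against 26.2% of all tiles, and limma on transformed levels passed 1, against 22.7%. Stages did not overlap in 0 of the 7 tiles, against 12.5% of all tiles. In 4 of the 7 the embryo mean was the lower one. The median difference of the 7 was -4.36 points, beside -2.08 over all other tested tiles and -15.7 over the 44778 other tiles at 30 to 70%. Those 44778 were chosen by the mean of all 8 samples, so the embryo values took part in the choice. Their median fibroblast level was 64.5%, against 40.1% in the 7, so these differences do not compare sequence of like starting level.

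Snrpn held the tested tile with the most negative difference, 67149700 to 67149799, read through 3 CpGs. It was at 36.3%, 20.6%, 48.0% and 21.7% in fibroblasts and at 0%, 23.8%, 0% and 0% in NT embryos, where samples 1 to 4 had 42, 63, 45 and 13 calls. Embryo samples 1, 3 and 4 were below every fibroblast sample and NT embryo 2 was within their range. The difference of -25.7 points had an adjusted p of 0.198 in the quasi-binomial model and 0.122 in limma. The second tested Snrpn tile, 67149900 to 67149999, holds the CpG with the most calls in the window. Its levels were 36%, 40%, 25.9% and 47.3% in fibroblasts and 33.3%, 67.6%, 6.67% and 0% in NT embryos, so that the embryo samples lay on both sides of the fibroblasts.

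The 2 promoter CpGs of Snrpn printed above had equal or nearly equal call numbers in every sample. The one 30 bases before the start site was at 28.6%, 23.1%, 48.1% and 52.9% in fibroblasts and at 66.7%, 28.6%, 75.0% and 36.9% in NT embryos. The one next to the start site, in the ZFP57 hexamer, was at 34.9%, 23.1%, 40.7% and 52.9% in fibroblasts and at 66.7%, 28.6%, 50% and 0% in NT embryos. The pair thus differed most in NT embryo 4, where both had 65 calls and one was at 36.9% and the other at 0%. NT embryo 3 had 4 calls at each. Both tiles were below 10 calls in that sample and were not tested.

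The 2 tested Peg3 tiles lay next to each other. Tile 6682900 to 6682999 was at 52.3%, 25%, 28.3% and 50% in fibroblasts and at 82.4%, 0%, 42.9% and 61.4% in NT embryos (difference 7.75, adjusted p = 0.680 in the quasi-binomial model). The tile from 6683000 to 6683099 was at 39.5%, 34.1%, 34.3% and 52.3%, and at 30.4%, 25%, 33.3% and 54.0% (difference -4.36, adjusted p = 0.650). The 1 tested Kcnq1ot1 tile, 150481300 to 150481399, was at 32.1%, 48.5%, 35.5% and 52.6% in fibroblasts and at 38.6%, 58.3%, 40% and 51.2% in NT embryos (difference 4.85, adjusted p = 0.538). In that tile the embryo and fibroblast ranges overlapped within both strains.

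Strain was compared over both stages. The X1 minus BDF1-CAST difference was 9.24 points for Peg3 (exact permutation p = 0.457), -3.36 for Snrpn (p = 0.629), -16.3 for Inpp5f (p = 0.143) and -5.84 for Kcnq1ot1 (p = 0.800). The sign turned without NT embryo 4 for Snrpn (1.37) and without NT embryo 2 for Kcnq1ot1 (2.96). The Inpp5f value moved with the processing: it was -5.63 points with each CpG weighted equally (exact permutation p = 0.571), and -26.8 points over the 4 CpGs with 10 calls in every sample (exact permutation p = 0.0286). From fibroblasts to NT embryos the mean level of Inpp5f differed by 27.4 points in BDF1-CAST and by -12.6 points in X1. The corresponding pairs were -4.51 and 5.94 for Peg3, -2.15 and -20.5 for Snrpn, and 12 and -4.80 for Kcnq1ot1. These differences by strain rest on 2 samples against 2 and were not tested for whole windows.

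In the tile model 0 of the 7 tiles were called between strains, where 0.00995% of all tiles were, and 0 for the product of stage and strain, where 0% were. At an unadjusted p under 0.05 the model passed 2 tiles for strain, against 14.4% of all tiles, and limma 1, against 13.6%. For the product the model passed 3, against 8.15%, and limma 2, against 9.24%. Both strain tiles are in Inpp5f. Tile 135831500 to 135831599 has 1 kept CpG and was at 59.0%, 46.2%, 40% and 40% in fibroblasts and at 61.9%, 79.4%, 10.7% and 0% in NT embryos (product of stage and strain, adjusted p = 0.461 in the quasi-binomial model). Tile 135831700 to 135831799 has 5 kept CpGs and was at 49.7%, 54.1%, 59.6% and 37.6%, and at 84.8%, 59.6%, 42.3% and 28.6% (adjusted p = 0.596). In both, the 2 X1 embryo samples were below the 2 BDF1-CAST embryo samples. The third tile passing for the product was 67149900 in Snrpn, with an adjusted p of 0.553 in the same model.

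**Figure D4:**
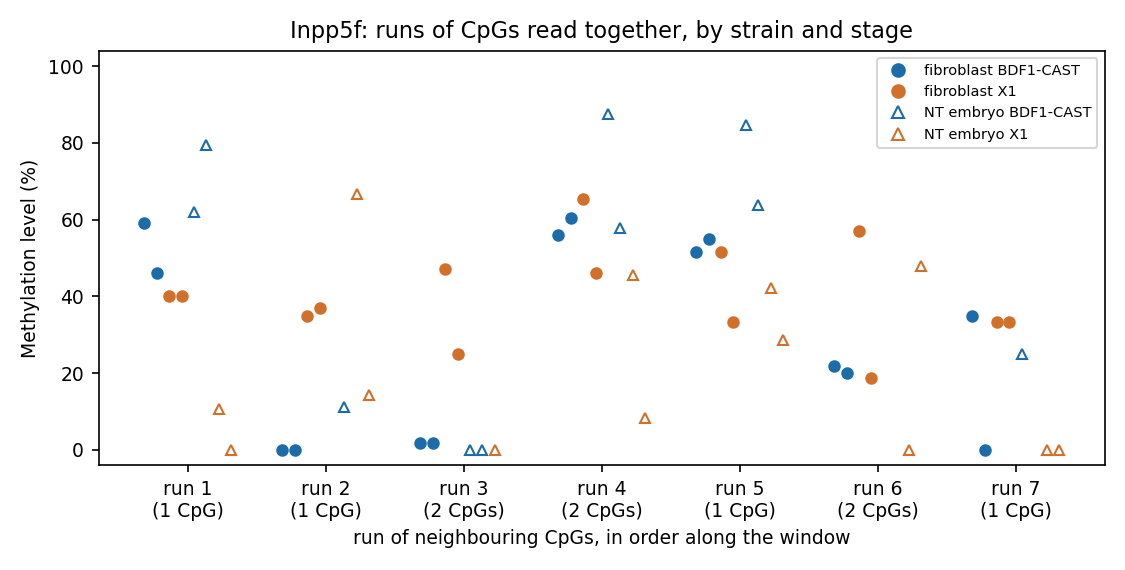
Methylation level (y axis, percent) of the 7 runs of Inpp5f CpGs in order along the window (x axis), for values with at least 5 calls per CpG. Filled circles are fibroblasts and open triangles NT embryos, blue for BDF1-CAST and orange for X1; in run 4 the BDF1-CAST embryo values are 87.6% and 57.7%, the X1 ones 45.5% and 8.33%.

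One stretch of Inpp5f had levels that separated by strain. Tile 135831600 to 135831699, with 3 kept CpGs, was at 1.35% and 1.33% in the BDF1-CAST fibroblasts and at 42.1% and 29.3% in the X1 fibroblasts. Among NT embryos the BDF1-CAST samples were at 0% and 4.76%, and the X1 samples at 25% and 11.1%. No BDF1-CAST sample reached any X1 sample over the 8 samples, a pattern singled out after its values were seen. NT embryo 4 had 9 calls there, so the tile was not among those tested; with a minimum of 5 calls its strain difference had an adjusted p of 0.114 in the quasi-binomial model. Within it, the run at 135831647 to 135831669 was at 1.82% and 1.75% in BDF1-CAST fibroblasts, at 47.1% and 25% in X1 fibroblasts and at 0% in all 4 embryo samples, with only 1 call per CpG in NT embryo 4. The runs on either side of the tile, at 135831561 and at 135831717 to 135831720, were between 40% and 65.3% in every fibroblast sample. In tile 135831600 to 135831699 the BDF1-CAST fibroblasts, samples 1 and 2, had 148 and 75 calls. The X1 fibroblasts, samples 3 and 4, had 57 and 75. The BDF1-CAST embryo samples had 34 and 21 calls there and the X1 embryo samples 24 and 9. The part of depth was not tested.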

How the data were processed

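Methylation was measured in 9 libraries, 5 of fibroblasts and 4 of NT embryos. For each library the authors deposited counts of calls and of methylated calls per CpG, with positions on mm9 (submitters' processing notes). An aligner or caller is not given in the sources used here. The authors also deposited methylation as a fraction for tiles of 100 bp, used only as a check: 97 values recomputed for the windows differed by at most 4.71e-08. The CpG density of a tile is a score in the same deposited table and supports no result. A further 19 columns were not used. Library 1a is a resequencing of library 1, per the deposited description, and both were summed, giving 8 samples.

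Calls were summed over kept CpGs per window and tile, and levels were compared by two-sided exact permutation tests over samples (Python 3.11.15, numpy 2.4.6, pandas 2.3.3, scipy 1.17.1). A quasi-binomial model was fitted to tiles where each sample had 10 calls or more, with limma 3.58.1 (R 4.3.3) moderating the dispersion through squeezeVar, never below 1. The model takes the spread as equal in both stages. It was tested on simulated data that were given equal spread too, so that test does not cover the larger embryo spread described above. Named were the tiles with the largest fall and rise and the highest and lowest fibroblast level per window, any called tile, and CpGs chosen by calls and level; other runs and tiles were chosen after their values were seen. The windows, rules and tests were chosen with earlier results of these data known. An annotation of build mm9 was not used here, so exons and introns are not stated, and tiles within 10000 bp of the windows held no kept CpG. Samples were not paired in the main tests. Deviations of same-numbered samples of the 2 stages correlated at under 0.1 in at least 3 of the 4 pairs, whichever mean they were taken from. With 2 samples per stage and strain, deviations from that mean are equal and opposite, so the 4 pairs then give only 2 values. These correlations do not show whether samples were matched. Alternatives in coverage, weighting, library 1a, window ends, model and left-out samples were run.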

Additional observations from a re-analysis of the deposited data

Results flagged for a closer look

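By calls summed over the window, Inpp5f moved in opposite directions by strain. Both BDF1-CAST embryo samples lay above the BDF1-CAST fibroblast mean and both X1 embryo samples below the X1 fibroblast mean. From fibroblasts to NT embryos the BDF1-CAST mean differed by 27.4 points and the X1 mean by -12.6, so X1 minus BDF1-CAST was -40.0 points. With each CpG weighted equally, the stage difference over both strains was -2.71 points instead of 7.36. The change within each strain was not worked out under that weighting.

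For the tile 135831500, which is the single CpG 135831561, the changes were 18.1 and -34.6 points, a difference of -52.7. For CpG 135831717 they were 14.1 and -29.5 points, a difference of -43.7, and for CpG 135831731 they were 20.9 and -7.00, a difference of -28.0. The tile 135831700 had 20.3 and -13.2 points, a difference of -33.4. Except for the tiles, whose test of the product of stage and strain is given above and did not pass adjustment, the difference was not tested. Opposite changes by strain were flagged in 6 of 19 items looked at, all in Inpp5f. They are the window, its tested tiles and CpGs of those tiles, so they share calls and are not separate results.

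A single sample stood far from the other 3 of its group in 3 items, the last 2 of which share a CpG and the sample. The Inpp5f CpG 135831731 was at 33.3% in fibroblast 4, against 51.6% to 55.0% in the other fibroblasts. The Snrpn CpG 67149785 was at 20.8% in NT embryo 2 and at 0% in the other embryo samples, and its tile 67149700 was at 23.8% and 0% likewise. In 38 groups of 4 looked at, chance flags about 1 in 20, or 1.90. That rate is for values without ties. In the last 2 items the other 3 values were tied at 0%, where any level above 0% is flagged, so the rate does not hold for them. The groups include CpGs and the tiles that hold them, so they are not independent.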

How the results depend on the processing

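Left-out samples gave these ranges of the stage difference: -5.00 to 9.61 for Peg3, -14.6 to -7.90 for Snrpn, -1.69 to 15.4 for Inpp5f and -5.58 to 8.02 for Kcnq1ot1. The ranges by strain were 2.02 to 15.0, -7.49 to 1.37, -21.0 to -8.69 and -10.6 to 2.96 in the same order. For pairs of windows they were 2.91 to 24.2 (Peg3 minus Snrpn), -20.4 to 5.28 (Peg3 minus Inpp5f), -11.4 to 15.2 (Peg3 minus Kcnq1ot1), -23.3 to -10.5 (Snrpn minus Inpp5f), -20.3 to -8.98 (Snrpn minus Kcnq1ot1) and -9.71 to 10.0 (Inpp5f minus Kcnq1ot1). Snrpn relative to other half-methylated tiles ran from -7.59 to 2.94. The tile counts stayed at 0 in each.

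With each CpG weighted equally, the stage difference was -0.151 for Peg3 and -2.71 for Inpp5f, both of the opposite sign, and the pairs gave 2.56 for Peg3 minus Inpp5f, -10.2 for Snrpn minus Inpp5f and -6.72 for Inpp5f minus Kcnq1ot1. At 10 calls in every sample, Inpp5f was at -0.300 by stage and -26.8 by strain, Peg3 minus Inpp5f at 9.10 and Snrpn minus Inpp5f at -28.2 (exact permutation p = 0.114, the call lost). At that minimum Snrpn rested on 1 CpG, at -28.5 by stage and -19.4 relative to other half-methylated tiles, Peg3 was at 8.80, Peg3 minus Snrpn at 37.3, and Kcnq1ot1 had 0 CpGs left and no value. Without a coverage filter Snrpn minus Inpp5f was -17.5 (exact permutation p = 0.0571), and without library 1a Peg3 was at -1.54. The causes were not tested. Of 121 values under such alternatives, 109 kept direction and side of the threshold, 4 lost the call, 1 gained it and 7 changed sign. That total includes the narrowed window ends, which removed no kept CpG and so could change no value. It also includes the tile counts, which stayed at 0.

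With the replicate block, same-numbered samples were paired and Snrpn minus Inpp5f remained -18.7 with an exact permutation p of 0.125, the smallest that 4 pairs allow. Deviations of same-numbered samples from the mean of their stage and strain correlated at -0.0260 to 0.00789 over 172412 tiles. The 2 pairs of a strain must give the same value there. Taken from the mean of their stage, they correlated at 0.0335 to 0.162, positive in all 4 pairs. Whether samples were matched is not known, and the block is given as an alternative. Over the genome it called 0 tiles, against 9673 without it. Genome counts also varied, from 0 without fibroblast 1 or fibroblast 2 to 14655 at 5 calls per tile.

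Precision was limited by 44 to 398 calls per window in NT embryo samples, and 9 of the 16 window tiles were too shallow for the test.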
